A study of Homo sapiens with 16 samples.

Results

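The nucleosomes of 2801 promoters were compared between 60 min and 20 min of stimulation with heat-killed Salmonella typhimurium (HKST), to find which promoters kept their sensitivity to micrococcal nuclease (MNase) over this interval and which lost it. The members are the promoters listed complete in all 4 tables of the 2 time points, 2801 of 21857 in the series (12.8%), with 1732 on chromosome 1, 637 on chromosome 10 and 432 on chromosome 11. They carry 2790 gene symbols, and membership rests on the files alone, not on a measured value. GM12878, a human B-lymphoblastoid line immortalized with Epstein-Barr virus, was left untreated or harvested after 20, 40 or 60 min with HKST, and nuclei were digested with 20 U (light) or 200 U (heavy) of MNase, in 16 samples. The 60 min and 20 min groups make up 8 of these, and each deposited table pools 2 replicates of 1 time point and 1 digestion level.

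MNase cuts the linker DNA between nucleosomes and then trims and destroys the less stable particles, so a nucleosome that is recovered by light digestion but lost in heavy digestion is called sensitive and one that outlasts heavy digestion is called resistant. Sensitive nucleosomes are known from the edges of the nucleosome-free region of active promoters, where the -1 nucleosome lies upstream of the transcription start site (TSS) and the +1 nucleosome downstream. HKST presents B cells with bacterial products such as lipopolysaccharide and flagellin, which act through Toll-like receptors and the transcription factor NF-kB. Sensitivity was the log2 ratio of light over heavy signal in rpm (reads scaled to library depth), after 0.122 rpm was added to each, and a promoter was called sensitive at 1 or above and resistant at -1 or below. The -1 nucleosome was read from -200 to 0 bp, the window the study takes for it, and the +1 nucleosome from 70 to 230 bp. The average -1 peak lay just outside this -1 window, at -210 to -200 bp. The window also holds the lowest point of the nucleosome-free region, at -80 to -70 bp. Values called -1 below are therefore of this region and the downstream flank of the -1 nucleosome.

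The 60 min tables hold 10.1 M fragments in light and 7.04 M in heavy digests, against 10.5 M in light and 4.12 M in heavy digests at 20 min. The median promoter held 17 light and 9 heavy fragments between -200 and 0 bp at 60 min, against 18 light and 5 heavy fragments at 20 min, and fragment numbers are compared only after scaling to depth. With 1 pooled table per group there is no spread between replicates and no p-value. Exact 95% intervals of the recovered fragments cover counting error only, and PCR copies were not marked as such. The windows of 191 promoters overlap that of another promoter and share fragments with it. Genomic DNA holds no cell type markers, so the identity of the cells was not checked. A difference between 60 and 20 min cannot be told apart from a difference in digestion between tubes.

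The windows from -200 to 0 bp of 8 promoters are shown because the results turn on them: the 3 with the largest gains of sensitivity at 60 min among promoters whose counting interval excluded 0, the 3 with the largest such losses, and the 2 that were most sensitive at both times. Coordinates are of GRCh37 (hg19, the build of the files), each sequence runs 5′ to 3′ in the direction of transcription and ends next to the TSS, and capitals mark matches to a TATA box, AP-1, ETS, EBF1, YY1 or SP1 motif, as spelled out further on. The windows of the 3 gaining promoters shown are AT-rich, with 43.0% G+C in ZP4, 36.0% in MS4A7 and 41.0% in SPRR3.
ZP4, chr1:238054223-238054422, minus strand: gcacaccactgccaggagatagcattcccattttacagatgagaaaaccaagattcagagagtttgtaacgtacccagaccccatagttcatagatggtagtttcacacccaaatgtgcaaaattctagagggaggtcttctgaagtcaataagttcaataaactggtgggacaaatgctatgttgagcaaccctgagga
MS4A7, chr11:60145758-60145957, plus strand: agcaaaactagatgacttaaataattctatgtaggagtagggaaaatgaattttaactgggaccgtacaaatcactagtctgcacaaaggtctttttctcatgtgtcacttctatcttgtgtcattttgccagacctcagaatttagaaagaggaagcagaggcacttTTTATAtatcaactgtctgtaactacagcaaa
SPRR3, chr1:152974023-152974222, plus strand: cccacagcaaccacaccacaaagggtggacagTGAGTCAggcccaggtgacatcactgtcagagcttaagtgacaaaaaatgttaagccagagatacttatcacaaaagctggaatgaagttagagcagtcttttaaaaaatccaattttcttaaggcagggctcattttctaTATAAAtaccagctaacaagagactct
By GENCODE, the SPRR3 window lies between genes, that of ZP4 in an intron of an unnamed transcript on the opposite strand, and that of MS4A7 in an intron of MS4A6E. The windows of the 3 losing promoters shown are rich in G+C and CpG, and all 3 hold SP1 matches. KIAA0040 has 21 CpG and 71.5% G+C, AP4B1 21 CpG and 67.0%, and METTL10 24 CpG and 74.0%. The wider groups differed less. Over 1502 promoters with at least 20 fragments at each time, the median was 56.5% G+C. It was 51.5% in the 51 with a log2 gain of 1 or more and 57.5% in the 80 with such a loss.
KIAA0040, chr1:175161950-175162149, minus strand: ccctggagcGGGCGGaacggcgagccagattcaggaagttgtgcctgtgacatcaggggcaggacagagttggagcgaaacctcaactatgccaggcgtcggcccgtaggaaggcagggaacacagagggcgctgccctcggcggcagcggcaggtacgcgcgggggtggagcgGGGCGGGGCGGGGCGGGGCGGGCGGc
AP4B1, chr1:114447526-114447725, minus strand: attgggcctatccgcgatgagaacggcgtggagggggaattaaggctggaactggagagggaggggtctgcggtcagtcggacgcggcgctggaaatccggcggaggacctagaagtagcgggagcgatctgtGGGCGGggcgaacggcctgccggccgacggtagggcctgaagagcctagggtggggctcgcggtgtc
METTL10, chr10:126480440-126480639, minus strand: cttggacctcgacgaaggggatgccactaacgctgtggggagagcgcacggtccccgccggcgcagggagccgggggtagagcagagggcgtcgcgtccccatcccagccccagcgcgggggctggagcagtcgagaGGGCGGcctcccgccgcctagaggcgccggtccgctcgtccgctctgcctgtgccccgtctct
Each of these 3 windows overlaps an exon of an annotated longer transcript of its own gene, and that of AP4B1 also an intron of DCLRE1B, which is read from the other strand. The persistently sensitive promoters of STK40 and NME7 differ in composition, with 70.5% and 42.0% G+C.
STK40, chr1:36851486-36851685, minus strand: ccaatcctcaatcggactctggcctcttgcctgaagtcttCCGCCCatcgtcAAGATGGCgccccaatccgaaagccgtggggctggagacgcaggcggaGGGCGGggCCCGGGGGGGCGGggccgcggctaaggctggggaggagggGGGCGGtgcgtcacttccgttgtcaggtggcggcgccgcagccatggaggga
NME7, chr1:169337187-169337386, minus strand: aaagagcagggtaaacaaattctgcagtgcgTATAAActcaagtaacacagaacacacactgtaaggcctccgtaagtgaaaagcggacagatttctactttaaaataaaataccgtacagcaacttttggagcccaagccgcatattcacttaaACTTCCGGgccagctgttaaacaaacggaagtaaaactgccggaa
The NME7 window overlaps an exon of BLZF1 on the other strand, and that of STK40 an exon of STK40 itself.

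Average nucleosome positions were nearly the same at both times. The profile of total signal (the mean of light and heavy, averaged over 3 neighboring positions of 10 bp) peaked at -610, -400 and -210 bp upstream and at 150 bp downstream at 60 min as at 20 min, and the +2 and +3 peaks lay at 360 and 590 bp at 60 min and at 370 and 600 bp at 20 min, 1 position apart. The total at the -1 peak was 1.19 rpm at 60 min, against 1.20 rpm at 20 min, and that of the +1 peak 1.16 rpm at 60 min, against 1.19 rpm at 20 min. In the nucleosome-free region, lowest at -80 bp, it was 0.578 rpm at 60 min, against 0.579 rpm at 20 min. The mean over promoters of the log2 light/heavy ratio was lower at 60 min at 198 of 200 positions, and at 192 after the tables were scaled to equal means. The log2 ratio of the mean signals, which needs no pseudocount and which single promoters with few heavy fragments weigh on less, was lower at 160 positions, 65 of 100 upstream and 95 of 100 downstream of the TSS, and higher at the other 40. The part of the shallower 20 min heavy table in the gap between these measures was not tested. The change of the mean ratio was -0.18 at its widest, at 470 to 480 bp. At the -1 peak the mean ratio was 0.28 at 60 min and 0.38 at 20 min, and at the +1 peak -0.10 at 60 min and 0.03 at 20 min. The light signal at the +1 peak was 1.12 rpm at 60 min, against 1.19 rpm at 20 min, while the heavy signal was 1.20 rpm at 60 min and 1.18 rpm at 20 min. Across the 200 positions, which share their libraries and overlap, Pearson's r between the 2 profiles of log2 ratios was 0.979, and for the ratio of mean signals 0.959.

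**Figure D1:**
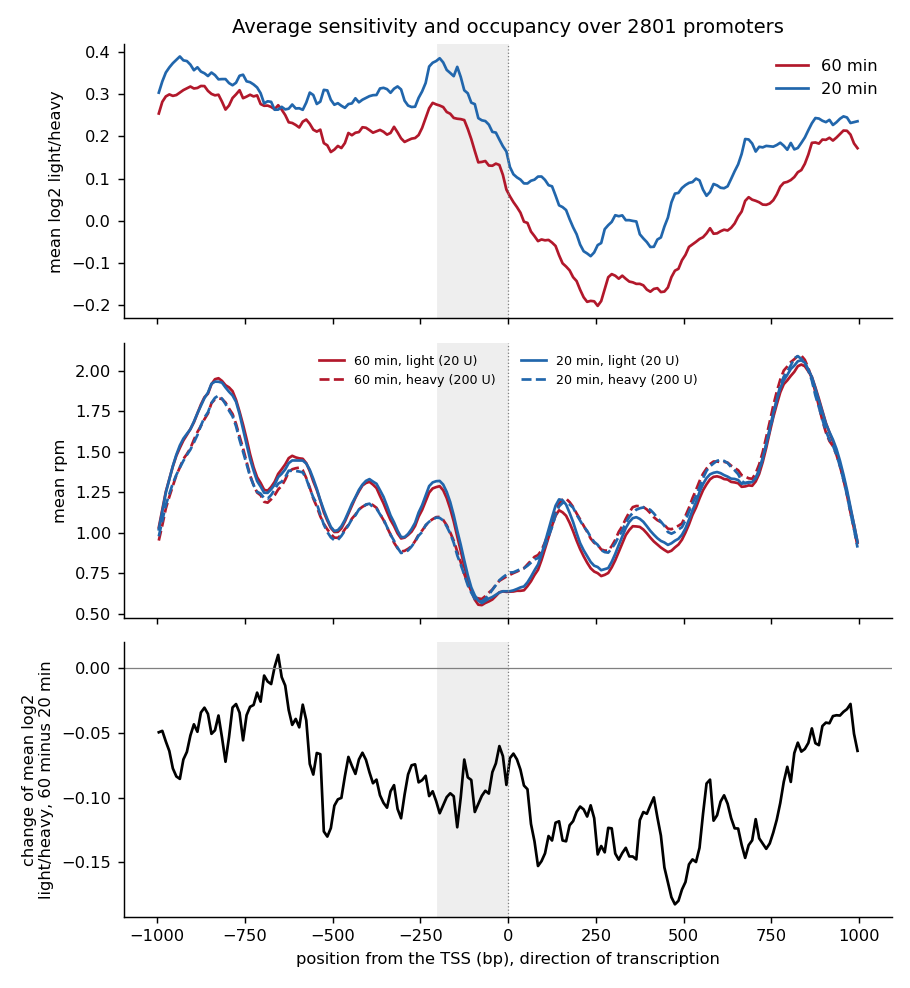
Mean values over the 2801 promoters at each 10 bp position from the TSS: log2 light/heavy (top), light (solid) and heavy (dashed) signal in rpm (middle), and the change of the log2 ratio, 60 minus 20 min (bottom). The 60 min ratio lies under the 20 min ratio at 198 of 200 positions, the signal curves nearly coincide, and the grey band marks the -1 window from -200 to 0 bp.

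Taken promoter by promoter, the -1 nucleosome was slightly less sensitive at 60 min. Over the 2606 promoters with any fragment in the window, the median log2 ratio was 0.18 at 60 min and 0.23 at 20 min, and the median change was -0.05 (95% order-statistic interval over promoters -0.09 to -0.03). With at least 20 fragments at each time, which left 1502 promoters for all single-promoter statements, the median was 0.10 at 60 min and 0.15 at 20 min, and the median change -0.06 (-0.09 to -0.02). This shift is small beside the spread of single promoters, whose middle 50% ran from -0.46 to 0.31, and it was 0.00 when the tables were thinned to equal depth. The light signal changed by a median of -0.05 and the heavy signal by 0.02. Total occupancy at -1 had a median of 1.11 rpm at 60 min and 1.13 rpm at 20 min, and 0 promoters had a log2 change of 1 or more (0%) or of -1 or less (0%) after 0.122 rpm was added to each value.

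At the +1 nucleosome the ratio was also lower at 60 min. Among 1521 promoters with enough fragments there, the median was -0.12 at 60 min and -0.05 at 20 min, with a median change of -0.10 (-0.13 to -0.06), and -0.11 (-0.14 to -0.07) over the 2551 with any fragment. When the tables were thinned to equal depth, the median change over promoters with any fragment was -0.02 (-0.09 to 0.00). The -1 and +1 changes hardly went together: over 1013 promoters with enough fragments at both, Spearman's rho was 0.02, across promoters that share their libraries. Of 33 promoters higher by 1 or more at -1, 12 were also higher at +1, and of 50 lower by 1 or more at -1, 28 were also lower at +1, against 450 higher and 563 lower among all 1013.

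Along the promoter, the median change was near 0 from -1000 to -600 bp and from 800 to 1000 bp, and below 0 between. It was further below 0 downstream of the TSS than from -600 to -200 bp. The median change was 0.00 (-0.03 to 0.03) from -1000 to -800 bp and 0.02 (0.00 to 0.06) from -800 to -600 bp, against -0.06 at -200 to 0 bp, -0.07 (-0.10 to -0.03) at 0 to 200 bp, and -0.08 (-0.11 to -0.05) at 400 to 600 bp. From 800 to 1000 bp it was -0.01 (-0.04 to 0.02). It was -0.03 both from -600 to -400 bp and from -400 to -200 bp, and -0.06 from 600 to 800 bp. These medians are of promoters with enough fragments in the tile. The mean ratio over all promoters at single positions was lower at 60 min at 98 of 100 upstream positions, far upstream included. The log2 ratio of the mean signals was lower at 65 of these 100 positions and higher at 35. At -1000 to -990 bp the ratio of mean signals was higher at 60 min (0.12) than at 20 min (0.06). Intervals of these tiles are over promoters, and neighboring tiles share fragments at their borders.

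**Figure D2:**
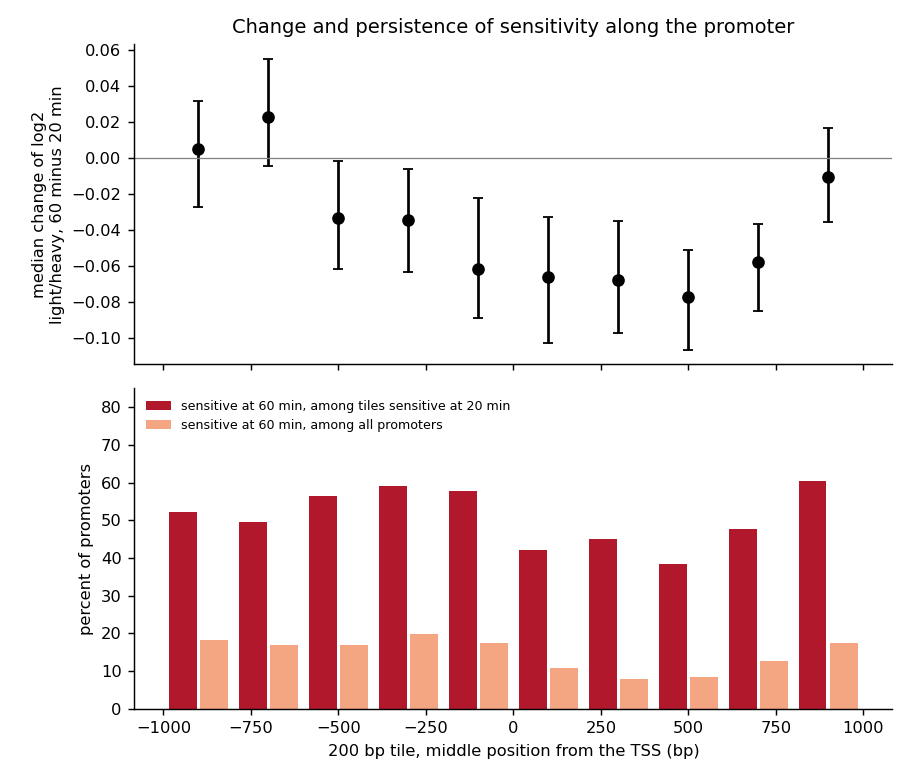
Tiles of 200 bp from -1000 to 1000 bp: median change of log2 light/heavy, 60 minus 20 min, with 95% order-statistic intervals over promoters (top), and the percent of promoters sensitive at 60 min among those sensitive in that tile at 20 min (dark bars) and among all (light bars, bottom). The medians lie below 0 in every tile from -600 to 1000 bp, and the dark bars stand above the light ones in every tile, from 38.4% at 400 to 600 bp to 60.3% at 800 to 1000 bp.

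Somewhat more promoters kept their -1 class from 20 to 60 min than lost it, but with a pseudocount of 0.5 of the mean in place of 0.1 fewer kept it (40.4% of sensitive and 31.2% of resistant promoters). Of 287 promoters that were sensitive at 20 min, 166 were sensitive at 60 min too (57.8%, exact binomial interval 51.9 to 63.6%), where 17.5% of all 1502 promoters were sensitive. Of 122 promoters that were resistant at 20 min, 73 stayed resistant (59.8%, 50.6 to 68.6%), against 9.92% of all promoters at 60 min. In both classes 0 promoters crossed to the opposite class. The sensitive class lost 121 promoters and gained 97, and the resistant class lost 49 and gained 76. Promoters are not replicates of a time point, and a promoter next to a threshold can change class with a small change of value: the 121 promoters that left the sensitive class had medians of 0.64 at 60 min and 1.30 at 20 min, and 15 of the 287 were below 0 at 60 min.

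**Figure D3:**
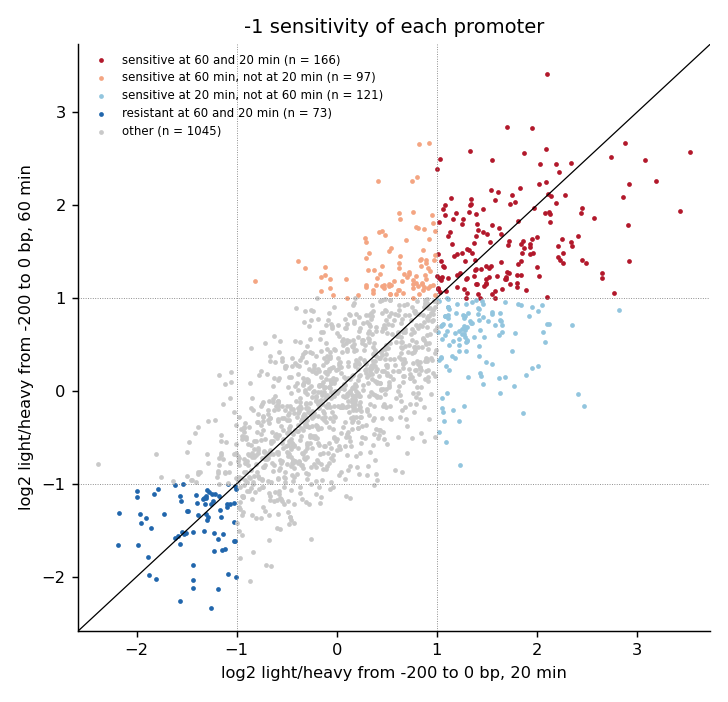
Each point is 1 of 1502 promoters, with log2 light/heavy from -200 to 0 bp at 60 min on the y axis and at 20 min on the x axis, and dotted lines at 1 and -1. Points lie along the diagonal, 166 promoters are sensitive and 73 resistant at both times, and the upper left and lower right corners are empty.

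The tables of untreated cells and of 40 min were not used to form these classes. Among the 166 promoters sensitive at 60 and 20 min, 88 were sensitive in untreated cells, 106 at 40 min and 54 in all 4 conditions. Among the 73 resistant at 60 and 20 min, 40 were resistant in untreated cells, 34 at 40 min and 23 in all 4. Of all 1502 promoters, 14.05% were sensitive in untreated cells and 15.65% at 40 min. The resistant class held 7.72% of them in untreated cells and 7.06% at 40 min. With at least 20 fragments in every condition (1367 promoters), the share of sensitive promoters found sensitive again was 55.9% from untreated cells to 60 min, 51.5% from 20 to 40 min, 56.1% from 20 to 60 min and 54.6% from 40 to 60 min. For resistant promoters it was 59.1% (49.3 to 68.4%) from untreated cells to 60 min, 38.3% (29.4 to 47.8%) from 20 to 40 min, 61.7% (52.2 to 70.6%) from 20 to 60 min and 57.6% (47.2 to 67.5%) from 40 to 60 min. Of all 1367 promoters, 15.5% were sensitive at 60 min and 14.3% at 40 min, and 10.6% were resistant at 60 min and 7.24% at 40 min. At the +1 nucleosome, 93 of 207 sensitive promoters (44.9%, 38 to 52%) and 100 of 186 resistant promoters (53.8%, 46.3 to 61.1%) kept their class, against 10.3% and 13.7% of all promoters in those classes at 60 min.

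The promoters with the highest sensitivity at both times include those of NME7, STK40 and the interferon target ISG15. NME7, a component of the centrosomal gamma-tubulin complex, had 110 light and 11 heavy fragments at 60 min, against 104 light and 2 heavy at 20 min, with log2 ratios of 2.57 at 60 min and 3.54 at 20 min. Light fragments outnumbered heavy ones by a wide margin in both pairs of its tables. ISG15, the ubiquitin-like modifier that interferon induces, held 111 light and 14 heavy fragments at 60 min, against 102 light and 3 heavy at 20 min, and its ratio was 2.26 at 60 min and 3.19 at 20 min, a change of -0.92 (-3.75 to 0.63). The ISG15 window lies in an intron of a longer ISG15 transcript. OSCP1 had ratios of 2.49 at 60 min and 3.08 at 20 min, and the zinc finger gene ZNF684 ratios of 2.45 at 60 min and 2.34 at 20 min. At STK40, a kinase-like protein, 31 light and 1 heavy fragments were found at 60 min, against 27 light and 0 heavy at 20 min, and the 0 allows up to 3. These 5 promoters had ratios of 1.01 (ISG15) or above at 40 min and, except ZNF684 with a value just under the threshold, of 1.08 (OSCP1) or above in untreated cells.

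The promoters that were most resistant at both times include those of CNIH3, PTGFR and RAPSN. CNIH3, an auxiliary subunit of glutamate receptors, had 12 light and 43 heavy fragments at 60 min, against 14 light and 23 heavy at 20 min, with log2 ratios of -2.03 at 60 min and -1.81 at 20 min. PTGFR, the prostaglandin F receptor, had ratios of -1.79 at 60 min and -1.89 at 20 min, from 10 light and 31 heavy fragments at 60 min and 13 light and 24 heavy at 20 min. RAPSN, which clusters acetylcholine receptors at the muscle synapse, had -1.58 at 60 min and -1.62 at 20 min. MAEL, a factor of the germline piRNA pathway, had -1.66 at 60 min and -2.18 at 20 min. The antisense transcript MRGPRG-AS1 had -1.98 at 60 min and -1.88 at 20 min, and its window overlaps an exon of MRGPRG. The last, LOC441601, with -1.66 at 60 min and -1.99 at 20 min, is annotated as a septin pseudogene, so its fragments may belong in part to related copies. Every one of the 6 was at -1.15 or below in untreated cells and at -1.33 or below at 40 min.

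Beyond these lasting differences, few single promoters changed by more than their fragments can scatter. The change was 1 or above at 51 of 1502 promoters (3.4%) and -1 or below at 80 (5.33%), and 91.3% stayed within. The counting interval lay above 0 at 29 promoters (1.93%) and below 0 at 42 (2.8%), together 71 or 4.73%, while a 95% interval by its construction leaves out the true value at up to 5% of promoters that did not change. The share past 1 in either direction was 16% in the quartile of promoters with the fewest fragments (40 to 75 over both times) and 3.70% in the quartile with the most (170 to 743). The promoters named next were picked for the size of their change among those 71, and their values are a description.

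Among promoters beyond counting error, the largest gains of -1 sensitivity at 60 min were at ZP4, MS4A7 and SPRR3. ZP4, a glycoprotein of the egg coat, had 40 light and 11 heavy fragments at 60 min, against 31 light and 23 heavy at 20 min. Its log2 ratio was 1.18 at 60 min and -0.82 at 20 min, a change of 2.00 (0.91 to 3.65). SPRR3, a precursor of the cornified envelope of skin, had 35 light and 7 heavy fragments at 60 min, against 27 light and 15 heavy at 20 min. The SPRR3 ratio was 1.40 at 60 min and -0.39 at 20 min, and the change 1.79 (0.67 to 4.02). In both promoters the heavy signal was lower and the light signal higher at 60 min. MS4A7, a membrane protein of monocytes from the family of CD20, changed by 1.85 (0.05 to 9.06), from 22 light and 1 heavy fragments at 60 min and 18 light and 5 heavy at 20 min, so that its upper bound is open in practice. RGS18, a regulator of G protein signaling in platelets, had a ratio of 1.32 at 60 min and -0.32 at 20 min, a change of 1.64 (0.34 to 3.98), with 28 light and 6 heavy fragments at 60 min, against 25 light and 13 heavy at 20 min. LAMTOR2, a scaffold of the lysosomal complex that activates mTORC1, had 46 light and 4 heavy fragments at 60 min, against 47 light and 10 heavy at 20 min. LAMTOR2 changed by 1.50 (0.19 to 4.33), with ratios of 2.30 at 60 min and 0.80 at 20 min.

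The other gains were of the same order. MPEG1, the pore-forming protein perforin-2 of macrophages, changed by 1.37 (0.18 to 2.87), with 50 light and 13 heavy fragments at 60 min and 38 light and 16 heavy at 20 min. C1orf110, named CCDC190 by GENCODE, was resistant at 20 min and not at 60 min, with ratios of -0.79 at 60 min and -2.38 at 20 min and a change of 1.59 (0.15 to 3.68).

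Among promoters beyond counting error, the largest losses were at KIAA0040, AP4B1 and METTL10. KIAA0040, a gene of unassigned function, had 12 light and 10 heavy fragments at 60 min, against 32 light and 1 heavy at 20 min. Its ratio was -0.16 at 60 min and 2.47 at 20 min, a change of -2.64 (-9.39 to -0.77). AP4B1, the beta subunit of the AP-4 adaptor that sorts cargo at the trans-Golgi network, had 18 light and 13 heavy fragments at 60 min, against 30 light and 1 heavy at 20 min, and changed by -2.45 (-9.07 to -0.61). At both promoters the 20 min value rests on a single heavy fragment. METTL10, annotated as the lysine methyltransferase EEF1AKMT2 of elongation factor eEF1A, had 23 light and 19 heavy fragments at 60 min, against 50 light and 4 heavy at 20 min. METTL10 changed by -2.10 (-4.68 to -0.71), from ratios of -0.23 at 60 min and 1.87 at 20 min. SCCPDH, an oxidoreductase related to saccharopine dehydrogenase, was sensitive at 20 min (1.23) and below 0 at 60 min (-0.80), with 18 light and 23 heavy fragments at 60 min and 34 light and 5 heavy at 20 min, a change of -2.03 (-4.23 to -0.54).

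Of the remaining losses, ADIPOR1, a receptor of the fat cell hormone adiponectin, had 19 light and 11 heavy fragments at 60 min, against 34 light and 2 heavy at 20 min, and changed by -1.71 (-5.78 to -0.02). DDR2, a receptor kinase for collagen, changed by -1.65 (-4.17 to -0.18), with 25 light and 18 heavy fragments at 60 min and 40 light and 4 heavy at 20 min. BCL2L15, of the BCL2 family of apoptosis regulators, and C1orf192, the cilium gene CFAP126 by GENCODE, each changed by -1.72, with intervals of -5.65 to -0.05 and of -5.76 to -0.03. BCL2L15 lies close to AP4B1 on chromosome 1, with TSSs at 114430169 and 114447525. All 8 promoters were sensitive at 20 min and 0 of them at 60 min.

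The choice of these promoters by the difference of the digests fixes the directions that follow, which are a description. Of 22 promoters that were past 1 and beyond counting error with a gain, the heavy signal was lower at 60 min at all 22 and the light signal higher at 19, with median changes of -1.14 in heavy and 0.25 in light. Of 28 such promoters with a loss, the heavy signal was higher and the light signal lower at all 28, with median changes of 1.08 in heavy and -0.47 in light. The heavy signal moved more than the light at 22 of 22 and at 25 of 28 promoters. The median heavy number was 30 fragments at 60 min, against 8 at 20 min, for the losses, and 13.5 at 60 min, against 18 at 20 min, for the gains. Heavy fragments are the fewer, so that counting alone spreads the heavy changes more widely than the light ones.

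Medians in untreated cells and at 40 min, which did not enter the choice, lay between those of 20 and 60 min for gains and losses alike. A choice by a large difference between 20 and 60 min tends to place other values between them even without a change. This order is therefore a description. The median log2 ratio of the 28 losses was 0.26 untreated, 1.23 at 20 min, 0.33 at 40 min and -0.23 at 60 min. For the 22 gains the medians were 0.64 untreated, -0.24 at 20 min, 0.47 at 40 min and 1.20 at 60 min. In untreated cells the value was nearer to that of 60 min than to that of 20 min at 19 of 28 losses and 10 of 22 gains, and the 40 min value at 16 of 28 and 13 of 22. KIAA0040 had ratios of -0.97 untreated, 2.47 at 20 min, -0.20 at 40 min and -0.16 at 60 min, and ADIPOR1 0.39 untreated, 1.95 at 20 min, -0.21 at 40 min and 0.24 at 60 min, so that 20 min was the single high value in each. RGS18 had 1.37 untreated, -0.32 at 20 min, 0.98 at 40 min and 1.32 at 60 min, with 20 min as the single low value.

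**Figure D4:**
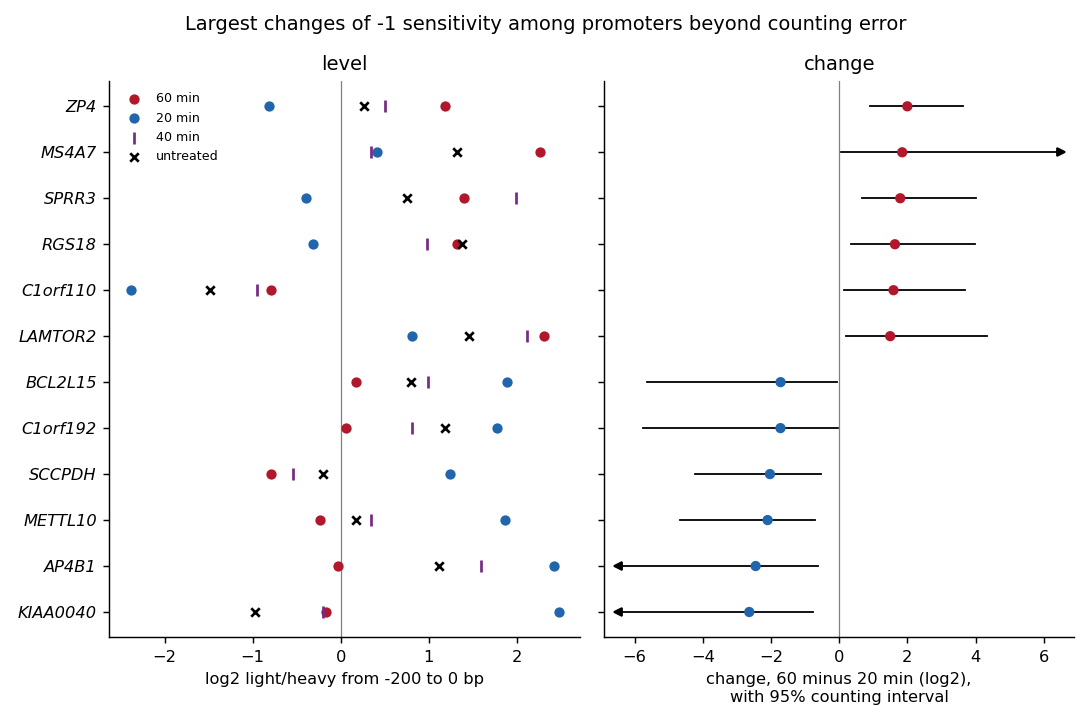
The 6 largest gains and the 6 largest losses of -1 sensitivity among promoters whose counting interval excluded 0, by gene: log2 light/heavy at 60 min, 20 min, 40 min and in untreated cells (left), and the change, 60 minus 20 min, with its 95% counting interval (right, arrows where a bound lies outside the axis). By that choice all 12 intervals lie on 1 side of 0, and those of KIAA0040, AP4B1 and MS4A7 run off the axis.

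At the +1 nucleosome, 54 promoters were higher at 60 min by 1 or more (3.55%) and 106 lower (6.97%), and counting intervals lay above 0 at 25 (1.64%) and below 0 at 59 (3.88%). UBXN11 had 48 light and 9 heavy fragments at 60 min, against 31 light and 18 heavy at 20 min, a change of 2.17 (1.01 to 3.96). RPE65, the retinoid isomerase of the retinal pigment epithelium, changed by 1.72 (0.43 to 3.53), and LOC100129620, an antisense transcript within PLPPR5, by 2.04 (0.34 to 4.53). PEF1, a calcium-binding protein of the penta-EF-hand family, had 95 light and 46 heavy fragments at 60 min, against 92 light and 4 heavy at 20 min, a change of -2.26 (-4.63 to -1.10). EXO1, an exonuclease of mismatch repair, changed by -2.29 (-5.32 to -0.62), and TMEM9, a lysosomal membrane protein, by -2.09 (-4.09 to -0.84). TM2D1 had 70 light and 12 heavy fragments at 60 min, against 73 light and 0 heavy at 20 min, and the interval of its change has no lower bound and reaches up to -0.63. Apart from LOC100129620, the -1 changes of these genes lay between -0.37 (RPE65) and 0.82 (TMEM9), and that of LOC100129620 was -0.94 (-2.25 to 0.22).

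Total occupancy at -1 moved little, and its largest changes stayed under 1 on the log2 scale with 0.122 rpm added, which understates the plain ratios of the rpm values. MS4A6E, of the same family and cluster as MS4A7, had 1.14 rpm at 60 min and 0.554 rpm at 20 min, a log2 change of 0.91, with 44 light and 23 heavy fragments at 60 min, against 23 light and 6 heavy at 20 min. NOL9, a kinase of ribosomal RNA processing, had 1.22 rpm at 60 min and 0.674 rpm at 20 min, and C1orf65 had 1.81 rpm at 60 min and 1.09 rpm at 20 min. LOC402779, an antisense transcript within CSMD2, had 2.07 rpm at 60 min and 1.25 rpm at 20 min. On the low side, IGSF9, an immunoglobulin superfamily adhesion protein, had 0.391 rpm at 60 min and 0.891 rpm at 20 min (-0.98), and FMO1, a flavin monooxygenase, 0.648 rpm at 60 min and 1.38 rpm at 20 min (-0.97). PRAMEF1, with 0.522 rpm at 60 min and 1.03 rpm at 20 min, belongs to a family of near-identical copies, so that its fragments are uncertain.

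By gene list, the median change of -1 sensitivity was above 0 for chaperone, mitochondrial ribosome and trafficking promoters and below 0 for proteasome and interferon-stimulated promoters. Order-statistic intervals of these medians over promoters were -0.13 to 0.68 for chaperones, -0.37 to 0.96 for mitochondrial ribosomal proteins, -0.18 to 0.50 for trafficking, -1.44 to 0.19 for the proteasome and -0.80 to -0.04 for interferon-stimulated genes, so that only the last left out 0. Each of these intervals, the last included, held the median change of all 1502 promoters, -0.06. No list was tested against other promoters. Over all 1502 promoters, the change was above 0 at 681 and below 0 at 821, and it was past 1 at 3.4% and past -1 at 5.33%. Against the median of -0.06 over all 1502 promoters, chaperones and heat shock genes had a median change of 0.43, with 7 of 9 above 0, 1 past 1 and 1 past -1. PPIE, a cyclophilin of the spliceosome, was the member beyond counting error, with 158 light and 32 heavy fragments at 60 min, against 141 light and 39 heavy at 20 min, and a change of 1.20 (0.48 to 2.08). PFDN2, of the prefoldin complex, had 0.68 (-0.58 to 1.99), and the small heat shock protein gene HSPB7 -1.22 (-2.93 to 0.11). Mitochondrial ribosomal proteins had a median of 0.49 with 5 of 6 above 0 and 0 past 1, and MRPL37 had the largest value, 0.96 (-0.65 to 3.62). SNARE, trafficking and lysosome genes had a median of 0.24 with 14 of 23 above 0, 2 past 1 (LAMTOR2 and the syntaxin STX12, at 1.47 with an interval of -0.55 to 5.96) and 1 past -1 (AP4B1).

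Proteasome and ubiquitin genes had a median of -0.52 with 8 of 11 below 0, and 6 were sensitive at 20 min but 2 at both times. Of all 1502 promoters, 19.1% were sensitive at 20 min, and 57.8% of these were sensitive at both times. PSMB4, a beta subunit of the proteasome core, had 51 light and 21 heavy fragments at 60 min, against 69 light and 4 heavy at 20 min. Its ratio was 0.71 at 60 min and 2.35 at 20 min, a change of -1.64 (-4.07 to -0.30). In untreated cells PSMB4 was at 0.73 and at 40 min at 2.19. PSMB2, another beta subunit, went the other way with a change of 1.05 (-0.63 to 2.98). Interferon-stimulated genes had a median of -0.22 with 13 of 16 below 0, and 8 were sensitive at 20 min, 4 at both times. At the +1 nucleosome, where no interval was formed for lists, the median change of this list was 0.36 over 19 promoters. The list was there in the other direction and above the -0.10 of all promoters, a contrast that was not tested. Among its members at -1, TRIM22, an antiviral ubiquitin ligase, had 30 light and 19 heavy fragments at 60 min, against 32 light and 3 heavy at 20 min, a change of -1.48 (-4.44 to 0.06), while GBP2 and IFITM2 had 0.36 (-2.47 to 3.27) and 0.42 (-0.57 to 1.44).

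In the lists closest to HKST signaling, medians were slightly below that of all promoters, with wide intervals that held it. Order-statistic intervals were -0.57 to 0.47 for NF-kB targets, -0.57 to 0.93 for Toll-like receptor signaling and -1.43 to 0.94 for immediate early genes. After thinning to equal depth these medians were close to 0, at 0.08, -0.01 and 0.01. For the counts that follow, 3.4% of all 1502 promoters were past 1 and 5.33% past -1. NF-kB targets had a median of -0.23 (8 of 13 below 0, 1 past -1), Toll-like receptor signaling genes -0.21 (7 of 10 below 0) and immediate early genes -0.19 (4 of 6 below 0, 1 past -1), and 0 members of these 3 were beyond counting error, where 4.73% of all promoters were, a share too small to expect many among so few. F3, tissue factor, had -1.12 (-3.77 to 0.56), IER5 -1.43 (-3.28 to 0.10), and TNFRSF9, the costimulatory receptor 4-1BB, 0.81 (-0.31 to 2.05). TLR5, the flagellin receptor, had -0.68 (-2.49 to 0.88), CHUK, the kinase IKK-alpha, -0.57 (-1.79 to 0.54), and PIK3CD, the PI3K delta catalytic subunit, 0.93 (-0.07 to 2.17). NFKB2, the p100 subunit of NF-kB, stayed under 20 fragments, with ratios of 0.67 at 60 min and 0.77 at 20 min. SPI1, which encodes PU.1, had 37 light and 12 heavy fragments at 60 min, against 31 light and 6 heavy at 20 min, and a change of 0.04 (-1.78 to 1.81). B cell identity genes had a median of -0.23 (14 of 24 below 0, 1 past 1 and 2 past -1), in which the complement receptor CR1 had -1.40 (-3.70 to 0.38) and SLAMF7, with 25 light and 0 heavy fragments at 60 min and 17 light and 3 heavy at 20 min, had an interval with no upper bound from -0.07. Cytokine and receptor genes had a median of -0.08 (12 of 23 below 0), with IL12RB2, a chain of the interleukin-12 receptor, at 1.13 (0.04 to 2.71) and IL20 at -0.74 (-1.59 to -0.01).

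Among lists of general cell functions, medians were 0.13 for oxidative phosphorylation (8 promoters), -0.17 for RNA polymerase II factors (6), -0.20 for splicing factors (9), -0.02 for translation factors and tRNA synthetases (9), -0.05 for replication and cell cycle (8) and -0.34 for chromatin remodelers and histone modifiers (9), with 0 members beyond counting error. NPM3, a histone chaperone of the nucleoplasmin family, had 58 light and 9 heavy fragments at 60 min, against 52 light and 1 heavy at 20 min (-1.50, -7.67 to 0.77). Among lists of other lineages, medians were 0.00 for S100A and epidermal differentiation genes (57), -0.05 for olfactory receptors (35), -0.20 for ion channels and neurotransmitter receptors (16), -0.11 for developmental transcription factors (16) and 0.12 for T and NK lineage genes (14). The epidermal list had 4 members with an interval above 0, among them SPRR3 and SMCP (1.00, 0.13 to 1.95), and 1 below 0, SPRR2B (-0.86, -1.76 to -0.09), of 57, against 1.93% above and 2.8% below 0 among all promoters. These genes lie in 1 cluster on chromosome 1. Zinc finger genes had 0.11 (20) and amino acid enzymes 0.10 (8), where BBOX1 of carnitine synthesis was at 0.95 (0.06 to 2.01). Cytosolic ribosomal proteins (3 promoters) and histone genes (4) were at -0.13 and -0.05, and the windows of HIST3H2A and HIST3H2BB overlap. Of the 23 lists with 6 or more promoters, 12 kept the sign of their median under equal means and thinning, among them the 5 named at the start of this account of lists, and 11 changed it under thinning: oxidative phosphorylation, translation, chromatin, NF-kB, immediate early, B cell, cytokine, epidermal, olfactory, ion channel and developmental genes, of which translation and epidermal genes also under equal means.

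**Figure D5:**
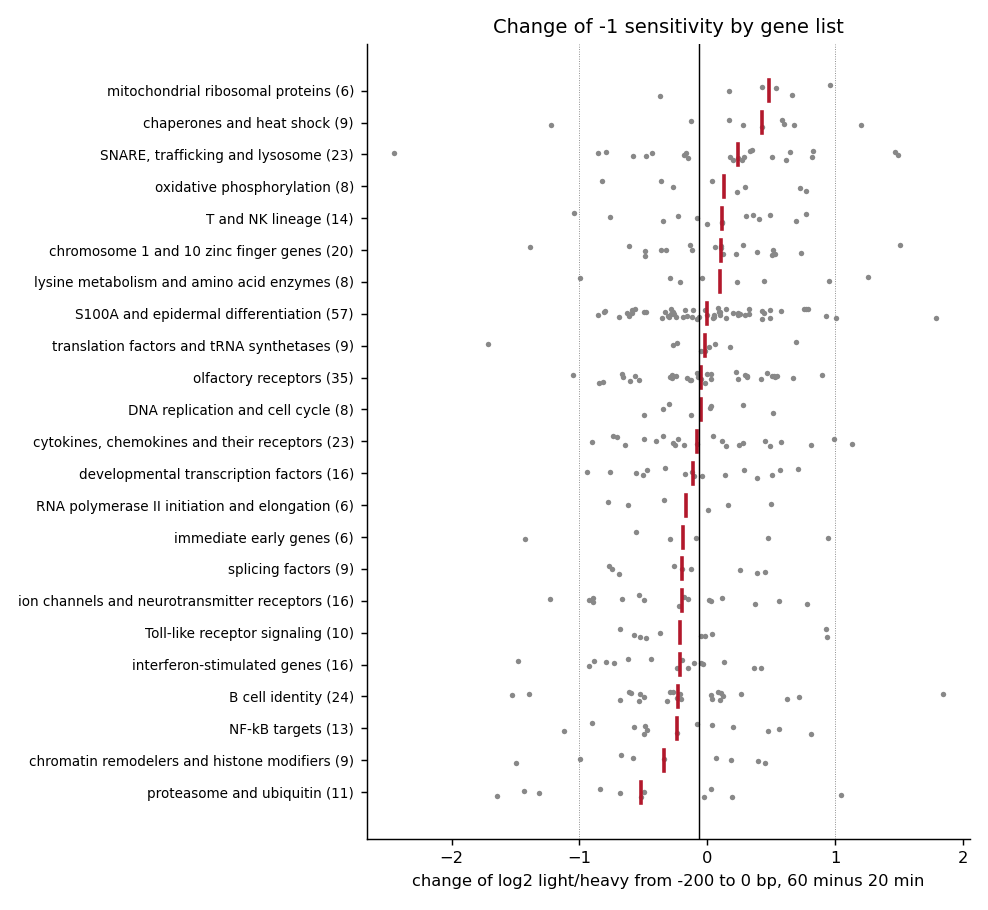
Change of log2 light/heavy from -200 to 0 bp, 60 minus 20 min, of each promoter with 20 or more fragments at each time (grey points) and the median (red bar) of the 23 lists with 6 or more such promoters, with the number of promoters in brackets. The black line marks the median of all 1502 promoters, -0.06, and the dotted lines mark 1 and -1. List medians range from -0.52 for proteasome and ubiquitin genes to 0.49 for mitochondrial ribosomal proteins, and members of every list spread widely about them.

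By base composition, the median ratio of GC-rich promoters was lower at 60 min, while for AT-rich ones the interval of the median change held 0. In the quartile of windows lowest in G+C (29.5 to 47.5%), the median ratio was 0.44 at 60 min and 0.39 at 20 min and the median change 0.06. In the highest quartile (64.0 to 82.5%) the median ratio was -0.14 at 60 min and 0.00 at 20 min and the median change -0.17, with -0.08 and -0.09 in the quartiles between. Changes of 1 or more were seen at 5.96% of the lowest and 2.65% of the highest quartile, and of -1 or less at 4.61% and 7.16%. The signs in the lowest and highest quartiles were the same under equal means and thinning. Across promoters, which share their libraries, Spearman's rho of G+C with the ratio was -0.289 at 60 min and -0.195 at 20 min, and with the change -0.129 (n = 1502). The 73 promoters resistant at both times held a median of 64.0% G+C and the 166 sensitive at both times 55.5%, with 9 and 11 CpG.

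Motif matches were counted on either strand from -250 to 50 bp. The TATA box (TATAAA) was found in 11.1% of all 2801 promoters and in 11 of 51 with a gain of 1 or more (21.6%), against 10 of 80 with a loss (12.5%) and 13.7% of the 1502. SPRR3 and MS4A7 hold one close to the TSS, from -27 to -22 bp in SPRR3 and, on the opposite strand, from -32 to -27 bp in MS4A7. The ETS motif CCGGAAGT, found in 4.32% of all promoters, was found at sensitive promoters: the 60 that carry it among the 1502 had a median ratio of 0.96 at 60 min and 1.15 at 20 min, 26 of them were sensitive at both times, and 0 gained or lost 1 or more. It was found in 15.7% of the promoters sensitive at both times and in 0 of 73 resistant at both, and NME7 holds it from -45 to -38 bp. YY1 (AAGATGGC, 2.86% of all) and NRF1 (TGCGCATGC, 1.57%) matches also went with high ratios, with medians of 0.76 and 0.85 at 60 min and 0.90 and 0.98 at 20 min, over 30 and 19 promoters. NF-kB matches, 12.6% of all promoters, were found in 3 gains and 10 losses of 1 or more, 1.81% and 6.02% of the 166 promoters with one, near the 3.4% and 5.33% of all, and these 166 had a median change of -0.05. PU.1 (GAGGAAGT, 2.28%), AP-1 (TGANTCA, 6.53%), EBF1 (CCCNNGGG, 21.1%) and SP1 (GGGCGG, 54.7%) matches went with median changes of 0.29 (39 promoters), -0.01 (122), -0.08 (255) and -0.08 (567). EBF1 and SP1 matches can overlap, and a match is not a measured binding site.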

How the data were processed

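Mononucleosomal DNA of GM12878 was enriched for promoters by solution capture and sequenced. Per the study's methods, adapters were clipped, paired reads were aligned to hg19 with Bowtie2 (2.2.2 in the submitters' processing notes) and handled with SAMtools, and the notes also list bedtools. The authors deposited 8 tables of fragment centers in rpm, counted every 10 bp in sliding windows of 60 bp for fragments of 140 to 200 bp, with both replicates pooled, so no table holds a single sample. All values lay within 0.05 of a whole step worth 0.5 of 1 fragment, and fragments, each entering 6 windows, were recovered from these steps. The last, partial lines of 3 tables were left out, as were bins without a value (9.90%).

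To form the log2 ratio of sensitivity, a pseudocount of 0.122 rpm (0.1 of the mean) was added to light and heavy, which understates changes of low values. Single promoters needed 20 fragments (light plus heavy) at each time. Exact conditional 95% intervals of the odds ratio were scaled by depth and tested on simulated data. The pseudocount, table scaling, windows, filters and depth were varied. A GENCODE transcript started within 50 bp of the TSS at 79.6% of promoters. Sequences were read from GRCh37.

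The promoters, the 25 gene lists and the tests were chosen with earlier results of these data known. Named are the 8 largest gains and losses at -1 beyond counting error, the 6 most sensitive and 6 most resistant at both times, the 4 largest changes each way at +1 and in occupancy, up to 2 per list each way, NFKB2 and SPI1, of which the text gives a part, and some genes the rule names are not reported here. Python 3.11.15, numpy 2.4.6, scipy 1.17.1 and matplotlib 3.10.9 were used.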

Additional observations from a re-analysis of the deposited data

How the results depend on the processing

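The median change at -1, -0.05 over promoters with any fragment, ran from -0.07 to -0.03 under a pseudocount of 0.05 of the mean, equal means, the other windows, the above-median promoters, 1 promoter per gene, the mean and the summed ratio; it was -0.022 with a pseudocount of 0.5 of the mean and 0 after thinning to the shallowest table. The median at +1, -0.11, became -0.059 and -0.021 under these last settings, and total occupancy at +1, -0.03, became 0 after thinning. Gains of 1 or more at -1 (51) numbered 5 with a pseudocount of 0.5, 81 in the window from -280 to -140 bp, 142 with no minimum and 21 with 40 fragments. Losses (80) numbered 15, 181 and 35 with that pseudocount, no minimum and 40 fragments, and 126 from -250 to -100 bp. Promoters beyond counting error (29 above 0 and 42 below) numbered 16 and 26 after thinning, which left 995 promoters. Sensitive promoters kept their class at 40.4% with a pseudocount of 0.5 and at 51.4% after thinning, and resistant ones at 31.2% with that pseudocount. All 16 gains and losses ranked largest kept their direction and stayed in their interval under 4 alternatives each. Alternatives for lists, profiles, composition and single promoters were chosen after seeing the data. No paired analysis was possible because no table holds a single replicate, and for the same reason no replicate could be left out. Depth limits what a single promoter shows: the median promoter had 5 heavy fragments at 20 min.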
